A study of Homo sapiens with 8 samples.

Results

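The regions described here are stretches of accessible DNA between genes that were called in every one of 8 mitotic ATAC-seq libraries. Peaks of the 8 deposited lists on chromosomes 1 to 22 were merged where they overlapped by at least 1 bp, which gave 583075 regions, of which 36170 had a peak in 8 of 8 lists. Of these 36170 regions, 8968 (24.8%) overlapped no annotated gene of any kind, lay more than 1 kb from every end of a protein-coding gene and lay within 500 kb of the nearest protein-coding gene. Being called in 8 of 8 lists was used to choose them, so their presence in both treatment groups is a description and not a result. They are called constitutive intergenic regions below, and each is named by its nearest protein-coding gene, which does not show that it acts on that gene.

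ATAC-seq uses the transposase Tn5 to insert sequencing adapters into accessible DNA. The cells were hTERT RPE-1, a telomerase-immortalised human retinal pigment epithelial line. In all 8 libraries the genotype was hTERT RPE-1 Plk1-/- EGFP-Plk1as, meaning that endogenous Plk1 was deleted and replaced by an EGFP-tagged, analog-sensitive Plk1, the mitotic kinase Polo-like kinase 1. Every sample, controls included, had been arrested in prometaphase with 5 µM STLC, an inhibitor of the spindle kinesin Eg5, for 16 h and collected by shake-off. The 4 DMSO samples then received 0.5% DMSO for 2 h and the 4 3MB-PP1 samples 10 µM 3MB-PP1, a bulky kinase inhibitor that analog-sensitive kinases accept, for 2 h, both with STLC still present. Each transposition reaction held 50000 cells, and the mitotic index was above 95%. The question the study posed was how Plk1 activity affects accessibility in mitosis. No interphase sample was analysed here, so no comparison with cycling cells was made.

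Accessible DNA away from genes often marks enhancers, which bind transcription factors and act on promoters at a distance, and also insulators and unannotated promoters. During mitosis most factors leave the condensing chromosomes, while part of the accessible sites, promoters more than distal sites, stay accessible, a behaviour often called mitotic bookmarking. Repeated DNA near centromeres and telomeres can also give peaks, since reads from many near-identical copies can be placed on the few copies present in an assembly.

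A genome sequence was not used here, so sequence is shown only where a promoter window was at hand. A RefSeq promoter window (assembly GRCh38.p14, 250 bases before and 50 after a gene's start) overlapped 11 of the 8968 regions. These 11 regions touched 12 windows, all of long non-coding RNA (lncRNA) genes, whose start lies just outside the region. The following 3 windows are shown because they hold the bases that 7 or 8 of the lists covered. Each is written 5′ to 3′ on the gene's strand, and capitals mark bases inside a peak in at least 7 of 8 lists.
LINC00111 window, chr21:41679052-41679351, plus strand: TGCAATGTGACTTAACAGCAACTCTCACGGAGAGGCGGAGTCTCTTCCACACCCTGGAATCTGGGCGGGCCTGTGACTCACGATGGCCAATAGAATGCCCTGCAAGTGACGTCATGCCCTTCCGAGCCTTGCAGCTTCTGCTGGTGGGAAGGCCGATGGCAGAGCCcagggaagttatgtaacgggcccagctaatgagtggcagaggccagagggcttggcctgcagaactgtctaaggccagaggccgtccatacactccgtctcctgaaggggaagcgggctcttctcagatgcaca
LOC102723376 window, chr10:11471-11770, plus strand: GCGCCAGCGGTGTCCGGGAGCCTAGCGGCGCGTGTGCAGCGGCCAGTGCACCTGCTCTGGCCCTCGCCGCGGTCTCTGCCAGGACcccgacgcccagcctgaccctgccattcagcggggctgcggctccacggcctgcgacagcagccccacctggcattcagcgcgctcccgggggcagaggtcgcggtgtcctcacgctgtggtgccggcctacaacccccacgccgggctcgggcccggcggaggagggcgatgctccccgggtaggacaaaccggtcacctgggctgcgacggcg
LINC03028 window, chr10:26579258-26579557, minus strand: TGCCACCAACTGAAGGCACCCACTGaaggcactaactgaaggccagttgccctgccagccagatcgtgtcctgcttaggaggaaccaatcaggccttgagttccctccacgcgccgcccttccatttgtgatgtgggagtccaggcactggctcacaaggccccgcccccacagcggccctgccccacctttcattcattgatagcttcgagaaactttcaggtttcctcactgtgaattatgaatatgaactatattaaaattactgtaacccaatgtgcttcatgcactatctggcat

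The LINC00111 window had 166 bases covered in at least 7 lists and 142 covered in all 8. Its capitals hold a GC box (GGGCGG, bases 63 to 68 of the window), an AP-1 site (TGACTCA, bases 74 to 80), a CCAAT box (CCAAT, bases 87 to 91) and a CRE (TGACGTCA, bases 107 to 114). AP-1 sites bind Fos and Jun family factors, and CREs bind CREB and ATF family factors. These letters were searched on both strands, with TATAAA in addition, and none of the 4 matches overlaps another. The CRE was added to the search after this window had been read. Of all 33725 promoter windows, 4.91% hold TGACTCA or its complement TGAGTCA, 45.04% hold GGGCGG, 34.4% hold CCAAT, 11.6% hold TATAAA and 1.87% hold TGACGTCA. Among 12569 windows of lncRNA genes the shares were 6.48%, 25.6%, 34.4%, 15% and 1.14% in the same order. Among the 12 windows under these regions, all of lncRNA genes, the counts were 1, 4, 6, 3 and 1. A match describes letters and does not show that a factor was bound. The region just upstream of the LINC00111 start, chr21:41677887-41679292, lies 60081 bp from the coding gene RIPK4. It was covered over 1158, 1087, 1039 and 922 bp in DMSO replicates 1 to 4 and over 1187, 478, 1043 and 743 bp in 3MB-PP1 replicates 1 to 4, so the groups overlap. The LOC102723376 window had 85 bases covered in at least 7 lists. Its region, chr10:10340-11649, lies at the tip of the chromosome, where near-identical copies on other chromosome ends can make the placement of reads uncertain. The LINC03028 window reached no more than 7 lists at any base, over 25 bases at its upstream edge, and its 2 GC boxes and 2 CCAAT boxes lie outside them.

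The lists held 149172 to 250548 peaks per library, with no read totals, so sequencing depth is unknown. Of these, 4.46% to 6.45% fell in the constitutive intergenic regions. As a check of the labelled cell type, a peak of 8 lists lay at a gene end of 7 of 10 epithelial and mesenchymal culture genes, among them VIM, KRT8, KRT18 and CAV1. The epithelial genes KRT7, EPCAM and CDH1 of that list had none. For retinal pigment epithelium genes such a peak lay at a gene end of 3 of 10 (MITF, OTX2 and PMEL), and the visual-cycle genes RPE65, LRAT and RLBP1 had none. The lists of other cell types gave 3 of 9 neuronal genes and 0 of 10 hepatocyte genes, and accessibility at a gene end is not expression. The labels name the 4 samples of a group biological replicates. The assay averages over cells, so a site that is open in fewer cells and a site that is less open in each cell cannot be told apart.

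Intergenic sites were seldom called in every list. Of the 202116 intergenic regions near genes seen in at least 1 list, 4.44% were called in 8 of 8, against 38.8% of 27051 regions at coding gene ends, 4.79% of 337617 gene-body regions and 3.39% of 16291 regions in gene deserts beyond 500 kb. A further 7045 intergenic regions were called in 7 lists. The list they lacked was DMSO replicate 1 in 1756 cases and 3MB-PP1 replicate 4 in 1468, and DMSO replicate 3 in only 298. The constitutive intergenic regions had a median length of 1485 bp, against 1150 bp for the regions of 7 lists. Merging chains of overlapping peaks can join sites that no base has in common. A base covered by all 8 lists was present in 5953 regions (66.4%), and absent from 3015 (33.6%). At coding gene ends 7.01% of the regions lacked such a base and in gene bodies 29.6%. The stretch shared by all 8 lists had a median of 117 bp over all intergenic members and 911 bp at gene ends.

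The regions nearest to each limit are given as a description. Regions near B4GALT1 and KCNT1, 1002 and 1003 bp from the gene, were kept and covered a mean of 508.5 and 665.8 bp. Regions near NCR2 and KIF4B, at 1000 and 998 bp, were left out and covered 719.4 and 709.5 bp. At the far limit, regions near DNAH5 (498881 bp) and CDH11 (498463 bp) were kept, with means of 872.6 and 636.4 bp. Regions near KIRREL3 (500634 bp) and RERGL (500892 bp) were left out, with means of 970.5 and 582.5 bp.

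The 3MB-PP1 libraries had lower covered bp and higher shares of split regions than the DMSO libraries, without overlap between the groups. Neither difference passed 0.05 once adjusted over the 4 measures compared. With only 2 measures at the smallest possible p, the adjusted value could not fall to 0.05, so the adjustment cannot decide. Covered bp is the summed length of a library's peaks inside a region, and its median over the 8968 regions was 820.5, 836, 984 and 802 bp in DMSO replicates 1 to 4. In 3MB-PP1 replicates 1 to 4 it was 642, 672.5, 711 and 629 bp. Each 3MB-PP1 library lay below each DMSO library. The group means were 861 ± 83.4 bp with DMSO and 664 ± 36.5 bp with 3MB-PP1 (SD, n = 4 each), a difference of -197 bp (p = 0.0286 by a two-sided exact permutation test, the smallest its 70 assignments allow; adjusted over 4 measures 0.0571). The lists also differed in the narrowest peak they hold, 114 to 135 bp with DMSO and 90 to 109 bp with 3MB-PP1. With peaks under 150 bp left out of every list the difference was -201 bp (exact permutation p = 0.0286, adjusted over 4 measures 0.114).

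The share of regions that a library split into 2 or more peaks was 7.17%, 9.10%, 8.66% and 13.1% in DMSO replicates 1 to 4. It was 21.9%, 17.2%, 22.2% and 13.5% in 3MB-PP1 replicates 1 to 4. The 3MB-PP1 libraries were all above the DMSO libraries, though both replicates 4 lay close together. The mean difference was 9.17 percentage points (exact permutation p = 0.0286, adjusted 0.0571). With peaks under 150 bp left out it was 6.69 points (exact permutation p = 0.0571), and with regions merged within 500 bp 9.18 points (exact permutation p = 0.0571). The split share was also higher in the other classes, by 9.80 points in gene bodies, 7.66 at gene ends and 7.78 in deserts. Over all peaks of a list, the median width was 355 to 409 bp with DMSO and 269 to 324 bp with 3MB-PP1.

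The share of regions whose best peak had an authors' -log10 q of at least 5 was 20.6%, 13.2%, 19.7% and 9.11% with DMSO and 11.9%, 6.47%, 10.2% and 4.53% with 3MB-PP1. These groups overlap, and the difference of -7.37 percentage points did not pass (exact permutation p = 0.0857, adjusted 0.114). In the other classes the strong share differed by -13.2 points at gene ends, -10.3 in gene bodies and -6.83 in deserts. In both groups replicates 1 and 3 lay above replicates 2 and 4. The relative rank, the percentile of a region's best -log10 p among all 36170 regions of 8 lists in the same library, does not depend on the length of a list. Its median over members was 33.9, 35.7, 35.0 and 37.0 with DMSO and 35.5, 36.6, 35.9 and 37.7 with 3MB-PP1. The groups overlap, and the difference of 1.05 percentile points was within the spread between libraries (exact permutation p = 0.257). Within odd-numbered replicates the 4 differences, in the order covered bp, split share, strong share and rank, were -226 bp, 14.1 points, -9.08 points and 1.27 points. Within even-numbered replicates they were -168 bp, 4.24 points, -5.66 points and 0.83 points. The increase in split regions was larger in replicates 1 and 3, with 2 libraries a group and no test.

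**Figure D1:**
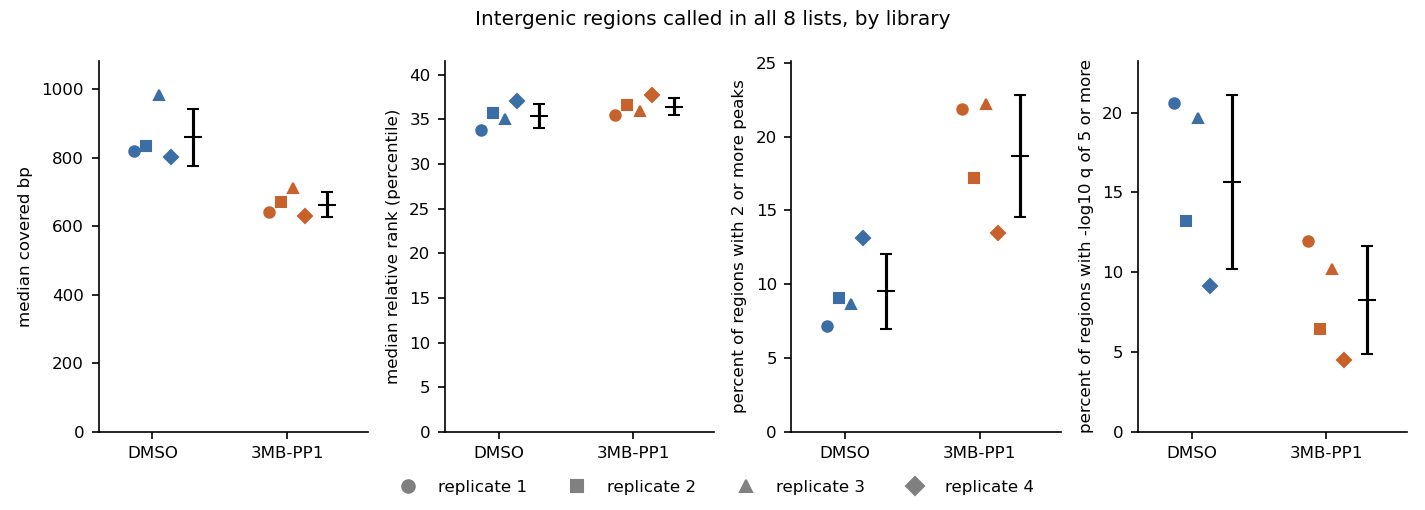
Each panel plots 1 measure over the 8968 constitutive intergenic regions for 4 DMSO and 4 3MB-PP1 libraries (marker shape, replicate number; bar, mean ± SD). Median covered bp separates the groups at 802 against 711 bp, the split share at 13.1% against 13.5%, and the other 2 measures overlap.

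Intergenic members were narrower than regions at gene ends and in gene bodies in every library. Their median covered bp was lower than that of regions at coding gene ends in 8 of 8 libraries, with differences of -661.5 to -534 bp (mean -582 ± 50.1 bp, SD; exact two-sided sign-flip test, p = 0.00781, the smallest possible). Against gene-body regions the difference was smaller, -79.0 ± 32.3 bp, and again in 8 of 8 libraries (exact sign-flip p = 0.00781). Both tests compare the same fixed sets of regions in every library. The class was set by the whole extent of a region, so a wider region more often reaches a gene and leaves the intergenic class. The part of this in the differences was not tested. Their median relative rank ran from 33.9 to 37.7, against 79.1 to 80.4 at gene ends and 41.5 to 42.0 in gene bodies.

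The lower covered bp with 3MB-PP1 was, in proportion, more marked between genes than at gene ends by the test chosen for it, and not once adjusted over 3 classes. On the log2 scale the median covered bp of intergenic members differed by -0.37 (-22.7%), and that of gene-end regions by -0.22 (-14.4%). The difference between these 2 was -0.15 (exact permutation test over 70 assignments, p = 0.0286, the smallest possible). It was -0.18 in odd-numbered and -0.11 in even-numbered replicates. Adjusted over the comparisons with gene ends, gene bodies and deserts its p was 0.0857, and with the replicate number as a block the exact p was 0.125. With 1 comparison alone at the smallest possible p, neither value could have been lower. Against gene-body regions the difference was 0.03 (p = 0.343, exact permutation) and against deserts -0.21 (p = 0.0857, exact permutation). In absolute bp the differences were close, -197 bp between genes and -208.5 bp at gene ends.

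**Figure D2:**
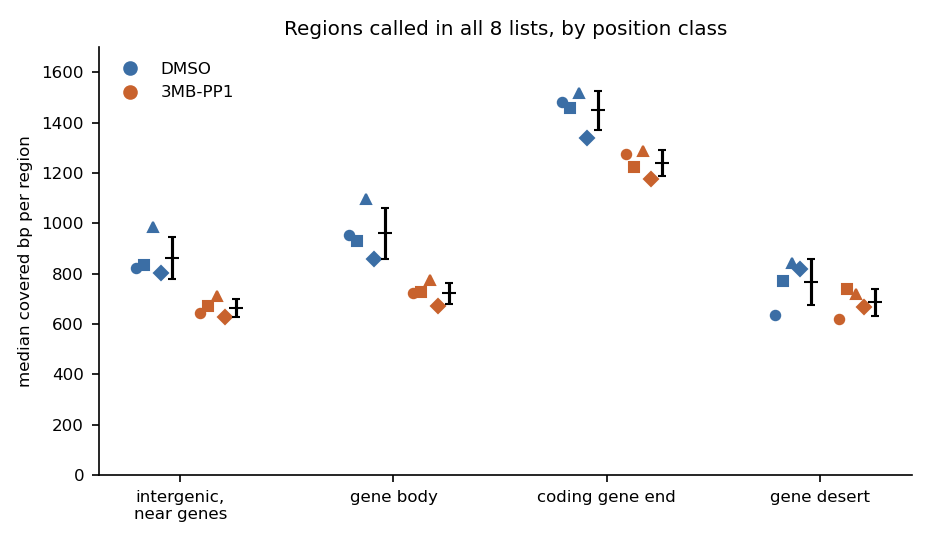
Median covered bp per region (y axis) in each library for the 4 position classes of regions called in 8 of 8 lists (blue, DMSO; orange, 3MB-PP1; marker shape, replicate; bar, mean ± SD). Intergenic regions sit between 629 and 984 bp, below the gene-end regions at 1176 to 1518 bp in every library.

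Single regions varied widely between libraries. The mean relative rank of a member had a median of 32.6, with 4.73 as the lowest and 99.97 as the highest, and the SD of a member's rank over the 8 libraries had a median of 14.4 percentile points. Spearman's rho of the members' ranks was 0.50 to 0.71 between DMSO libraries, 0.43 to 0.58 between 3MB-PP1 libraries and 0.38 to 0.62 across the groups; these describe 28 pairs of libraries over the same 8968 regions. A strong peak was present in no list for 6674 members (74.4%) and in 8 of 8 lists for 312 (3.48%). Mean covered bp was lower with 3MB-PP1 in 6857 members (76.5%). Taking same-numbered libraries as pairs for this count, covered bp was lower in all 4 pairs in 2278 members (25.4%). It was lower in none of the pairs in 247 (2.75%). These shares were not counted over all 36170 regions. The other classes were lower with 3MB-PP1 too. Median covered bp differed by -237 bp in gene bodies, -208.5 bp at gene ends and -81.5 bp in deserts, against -197 bp over members.

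The 312 members strong in every list all had bases in common to the 8 lists, with a median shared stretch of 843 bp. They lay within 10 kb of a coding gene in 21.8% of cases, against 18.1% of all members. Within 50 kb of the outermost called peak of a chromosome lay 18 of them (5.77%), against 34 of 8968 (0.379%), and within 5 Mb of the chromosome's longest gene-free stretch, which holds the centromere on most chromosomes, 34 (10.9%) against 464 (5.17%). Chromosomes 10 and 12 held 11.2% of them, against 20.0% of all members. These values describe a set chosen by peak strength and carry no test.

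A fit over all 36170 regions of 8 lists (limma on normal scores of the rank, Benjamini-Hochberg adjusted) called 2 intergenic members as higher in relative rank with 3MB-PP1 at an adjusted p of at most 0.05, and 0 as lower. Among all regions the same rule called 15 higher (0.0415%) and 1 lower (0.00276%), so the members' share of 0.0223% is no larger than the background. At an unadjusted p of at most 0.05, limma gave 438 members higher (4.88%) and 364 lower (4.06%), against 4.69% and 5.22% of all regions. For covered bp relative to the library's median, 0 members were called in either direction, with a background of 0% both ways. Unadjusted, 527 were higher (5.88%) and 516 lower (5.75%), against 10.6% and 5.05% of all regions. The median shift removed by this centring differs from that of single regions. Without it the median log2 difference in covered bp was -0.34 over members and -0.27 over all regions, and 24 members (0.268%) passed as lower, where 0.274% of all regions passed in either direction.

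The region with the smallest p lay 1386 bp from the gene LOC101929627, at chr8:85741647-85743103, and 3219 bp from REXO1L10P, a pseudogene of a multicopy family. Its relative rank was 57.5, 72.6, 47.9 and 83.6 in DMSO replicates 1 to 4 and 94.6, 91.3, 94.9 and 94.4 in 3MB-PP1 replicates 1 to 4. Every 3MB-PP1 library was above every DMSO library, and the difference in normal score was 1.12 ± 0.16 (SE; limma adjusted p = 0.0305). Its covered bp went the other way, at 1369, 1438, 583 and 355 bp with DMSO and 128, 1027, 256 and 158 bp with 3MB-PP1, with overlapping groups (log2 difference relative to the library median -1.21 ± 0.71, limma adjusted p = 0.434). No base of it was covered in all 8 lists, so the libraries do not rank the same bases.

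The other called region lay at chr4:49118658-49121285, 56579 bp from CWH43, a gene of lipid remodelling of GPI anchors, and within 5 Mb of the longest gene-free stretch of chromosome 4. Its relative rank was 72.2, 87.5, 69.7 and 88.3 with DMSO and 92.3, 97.5, 97.2 and 97.8 with 3MB-PP1, without overlap (0.96 ± 0.15 in normal score, limma adjusted p = 0.0440). A core of 1472 bp was covered in all 8 lists. The number of members called depended on single libraries. Leaving out DMSO replicate 1, DMSO replicate 2, 3MB-PP1 replicate 2 or 3MB-PP1 replicate 3 left 0 members called (3 of all 36170 regions each time). Leaving out DMSO replicate 3 left 1 (5 of all regions), and leaving out DMSO replicate 4 gave 21 (59 of all regions). The size of the difference in normal score stayed between 0.96 and 1.30 near LOC101929627 and between 0.85 and 1.1 near CWH43. With plain percentiles in place of normal scores neither region passed (limma adjusted p = 0.0950 and 0.111), and with ranking by fold the region near CWH43 did not (limma adjusted p = 0.0865).

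The next 3 members in this direction were near SHCBP1, TP53TG3F and TMEM161B, with limma adjusted p of 0.0603, 0.0820 and 0.0820. The regions near SHCBP1 (chr16:46389120-46390196) and TP53TG3F (chr16:33491735-33492351) also lie within 5 Mb of the longest gene-free stretch of their chromosome, as does the region near CWH43. TP53TG3F belongs to a family of near-identical copies, so placement of reads there is uncertain. The region near TMEM161B (chr5:88140640-88142758), which lies near neither a chromosome end nor such a stretch, had ranks of 81.7, 82.2, 82.8 and 81.2 with DMSO and 90.0, 92.3, 89.0 and 94.1 with 3MB-PP1. The 5 members with the smallest p for a lower rank did not pass. They were near STAC, FSIP2, NPY1R, ABCC2 and SGK1, with limma adjusted p of 0.0820 to 0.171. For the region near SGK1, a kinase induced by serum and glucocorticoids, the ranks were 53.7, 66.7, 54.7 and 69.5 with DMSO and 17.8, 5.38, 31.2 and 11 with 3MB-PP1. All 5 had groups that do not overlap, which the choice by smallest p favours.

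**Figure D3:**
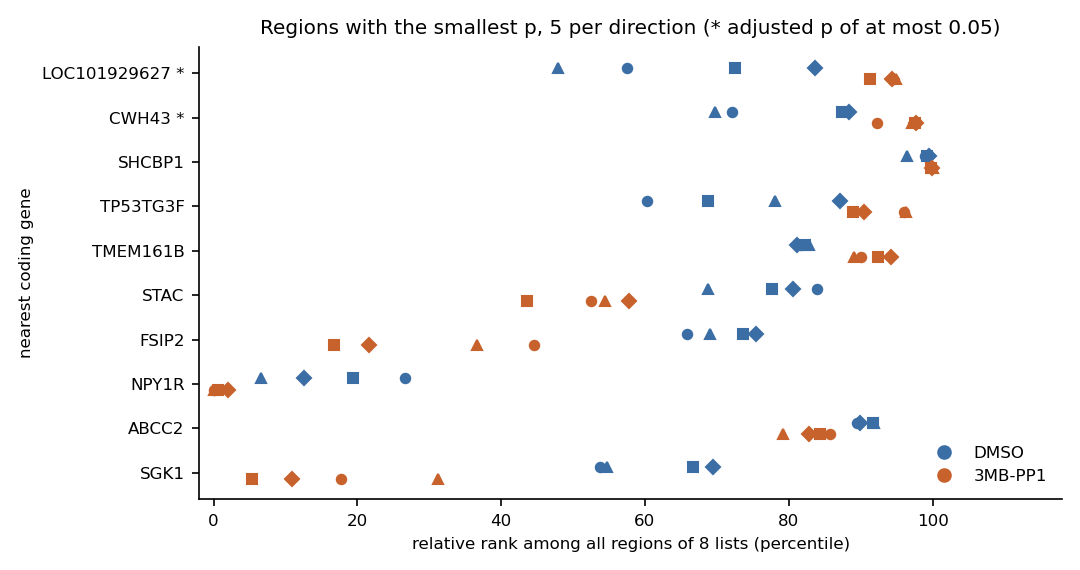
Relative rank (x axis, percentile among 36170 regions) in each library for the 5 members with the smallest p in each direction, by nearest coding gene (blue, DMSO; orange, 3MB-PP1; marker shape, replicate; asterisk, limma adjusted p of at most 0.05). The 4 3MB-PP1 libraries lie above the 4 DMSO libraries in the upper 5 rows and below them in the lower 5, and 2 of the 10 passed.

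For covered bp the members with the smallest p were near APOB, LOC124903317, KDM4B, PLD5 and SEMA3C among those narrower with 3MB-PP1. They had limma adjusted p of 0.142 to 0.180. The region near KDM4B (chr19:5172017-5173842), a histone demethylase, was covered over 1421, 1531, 1452 and 1444 bp with DMSO and over 433, 383, 362 and 420 bp with 3MB-PP1. The groups are far apart there, while the rank of the same region overlapped (25.4 to 56.2 against 26.6 to 55.7). The region near APOB (chr2:20915773-20919368), the gene of the main protein of low-density lipoprotein, was covered over 1417, 2218, 3095 and 1657 bp with DMSO and over 254, 303, 327 and 355 bp with 3MB-PP1. No base of it was shared by the 8 lists. Among wider members, near LOC124906010, TPTE, PPFIA2, RASSF8 and RTL6, the limma adjusted p was 0.176 to 0.183. The region near RASSF8 (chr12:25884113-25885929) was covered over 1139, 1483, 1127 and 970 bp with DMSO and over 1568, 1518, 1817 and 1515 bp with 3MB-PP1.

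Of the 10 highest-ranked constitutive intergenic regions, 5 lay near a chromosome end or a long gene-free stretch. The highest mean rank, 99.97, belonged to a region 3709 bp from SIRT4, a mitochondrial sirtuin (chr12:120316958-120318199), with authors' -log10 q of 48.8 to 142 over the 8 lists. It was covered over 973, 1112, 873 and 720 bp with DMSO and 872, 860, 676 and 696 bp with 3MB-PP1, with overlapping groups. Next came a region of 519 bp near NID1, the basement membrane protein nidogen (chr1:236096891-236097409), and a region near NFE2L3, a CNC-type transcription factor (chr7:25862065-25862976, 289222 bp from the gene). The region near FLYWCH2 (chr16:2904259-2906206) was the widest of the first 10, with 1700 bp shared by all 8 lists and 1752 to 1870 bp covered with DMSO against 1717 to 1784 bp with 3MB-PP1.

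Of the other 6 in the first 10, 3 lay within 50 kb of a chromosome's outermost peak (near METRNL, LOC105375116 and FRG2B), 2 lay near the gene-free stretch of chromosome 21 (both nearest to LOC102723475), and 1 was near DUX4. DUX4 and FRG2B belong to subtelomeric repeats with near-identical copies. The regions near LOC102723475 include chr21:8252831-8253365, which lies 477 bp from the ribosomal RNA pseudogene RNA18SP5. The region near FRG2B (chr10:133785864-133787416) was covered over 1544, 1535, 1548 and 1497 bp with DMSO and 1108, 1122, 1102 and 1049 bp with 3MB-PP1, without overlap. Relative to the library median its log2 difference was -0.13 ± 0.12 (limma adjusted p = 0.608), since the library medians fell as well. Among the 100 highest-ranked members 15 lay within 50 kb of a chromosome's outermost peak, against 34 of all 8968, and 12 within 5 Mb of the longest gene-free stretch, against 464. The part of repeated sequence in these ranks was not tested.

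The 5 widest members had mean ranks of 40.9 to 91.4, against a median of 32.6 over all members. The region near ZNF519 (chr18:14170586-14175238) was covered over a mean of 3898 ± 270 bp with DMSO and 3411 ± 538 bp with 3MB-PP1 (SD, n = 4 each), and its rank was 36.2 to 50.9. Regions near CWH43 (chr4:49510364-49515470), VEPH1, SH3TC2 and TP53TG3B followed. Of these 5, the regions near ZNF519, CWH43 and TP53TG3B lie within 5 Mb of the longest gene-free stretch. The region near VEPH1 (chr3:157530572-157534958) had 2662 bp in common to all 8 lists.

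Constitutive intergenic regions were densest at moderate distance from genes. The intergenic DNA that the rule allows, measured on the gene table, amounts to 911 Mb and held 9.84 members per Mb. The density was 9.90 per Mb at 1 to 5 kb from a coding gene end, 12.7 at 5 to 10 kb, 13.3 at 10 to 25 kb, 12.3 at 25 to 50 kb, 11.1 at 50 to 100 kb, 8.01 at 100 to 250 kb and 4.77 at 250 to 500 kb. Regions of any list were also fewer at 1 to 5 kb, at 211 per Mb, than at 5 to 10 kb, at 270 per Mb. The allowed DNA was counted in points 100 bp apart, while a region must fit whole between the limits. The part of this in the lower density next to genes was not tested. Within 100 kb lay 73.4% of members but 60.4% of the allowed DNA. The share of regions of any list that were called in all 8 varied less, from 4.95% at 10 to 25 kb to 3.34% at 250 to 500 kb. Members at 1 to 5 kb were the widest, at 930 ± 86.5 bp with DMSO and 690 ± 55.4 bp with 3MB-PP1 (SD of library medians, n = 4 each). Those at 250 to 500 kb had 790 ± 71.1 and 647 ± 46.2 bp. The log2 difference with 3MB-PP1 was -0.43 in the nearest and -0.29 in the farthest bin, and this gap was not tested. Within 1 kb of the end of a non-coding gene lay 381 members (4.25%), against 3.53% of the allowed DNA, and within 1 kb of an lncRNA gene end 2.32% against 1.82%. The counts of this paragraph are descriptions of 1 merged set with no replicate error.

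**Figure D4:**
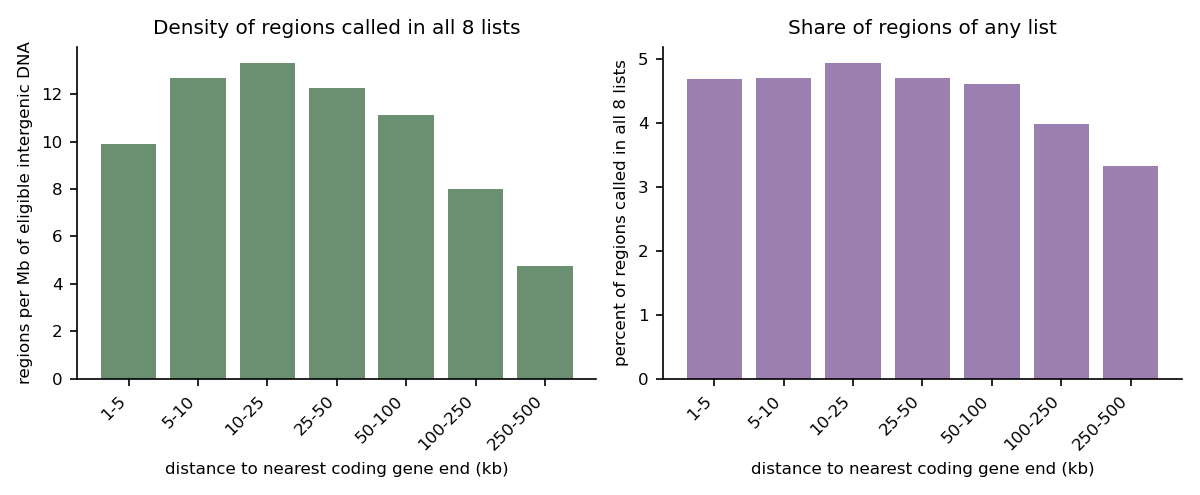
Left, members per Mb of intergenic DNA that the rule allows, and right, the percent of regions of any list that were called in all 8, in 7 bins of distance to the nearest coding gene end (x axis, kb). Density is highest at 10 to 25 kb, at 13.3 per Mb, and lowest at 250 to 500 kb, at 4.77 per Mb.

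Chromosomes 10 and 12 stood out in density. They held 896 and 898 members, or 20.2 and 20.4 per Mb, against 8.72 per Mb on the other autosomes together, where the single values ran from 6.39 on chromosome 5 to 12.6 on chromosome 20. On chromosome 10 the excess lay beyond 60 Mb, with 749 members at 31.2 per Mb, against 147 at 7.19 per Mb before it. On chromosome 12 it lay on both sides of 35 Mb, at 27.7 and 17.9 per Mb. Gene-end regions called in 8 lists numbered 0.66 and 0.63 per coding gene on chromosomes 10 and 12, against 0.45 to 0.64 on the others. Of the gene-body regions of any list, 6.26% and 6.10% were called in all 8 on chromosomes 10 and 12, against 3.70% to 5.32% on the others. The share of intergenic regions of any list that were called in all 8 was 8.39% on chromosome 10 beyond 60 Mb and 3.19% before it, against 4.13% on the other autosomes. By whole chromosome this share was highest on chromosome 21, at 7.02%, against 6.62% and 6.11% on chromosomes 10 and 12. RPE-1 cells are known to carry an extra segment of the long arm of chromosome 10, and more copies of a segment give more reads from it. Copy number was not measured here, and its part in these densities was not tested.

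**Figure D5:**
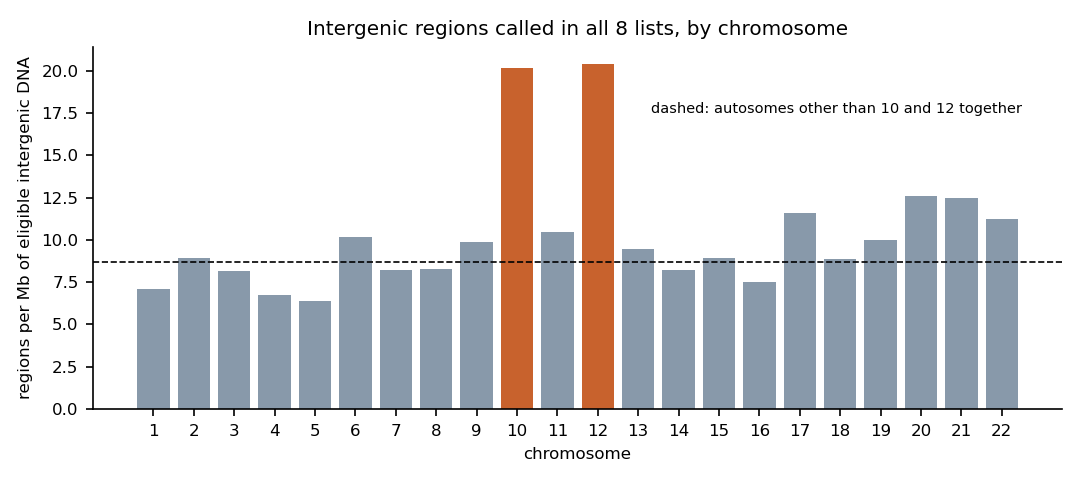
Members per Mb of intergenic DNA that the rule allows (y axis) on each autosome (x axis), with the value of the autosomes other than 10 and 12 as a dashed line. Chromosomes 10 and 12 reach 20.2 and 20.4 per Mb, and the dashed line lies at 8.72 per Mb.

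Members often lay in groups. With a gap of at most 10 kb between neighbours, 2348 members (26.2%) fell into 1030 runs of 2 or more, and 21 runs held 5 or more. Of these 21, 10 were on chromosome 10 and 4 on chromosome 21. Runs of 8 lay near TPTE (chr21:10343201-10373207) and LOC124907854 (chr2:87395855-87431459), the second within 5 Mb of the longest gene-free stretch. On chromosome 21 that stretch is chr21:498025-5010453, and nearness to the centromere itself was not measured. Runs of 7 lay near CWH43 (chr4:49091285-49121285), FOXI2 (chr10:127683150-127721777), PSAP (chr10:71859955-71906390) and LOC101927345 (chr21:9823407-9874176), and between HIF1AN and PAX2 (chr10:100646466-100689542). The runs near CWH43 and LOC101927345 also lie within 5 Mb of the longest gene-free stretch of their chromosome. PSAP encodes the lysosomal protein prosaposin, PAX2 a factor of kidney and eye development and HIF1AN an inhibitor of hypoxia-inducible factor. The members of the PSAP run had mean ranks from 13.2 to 97.6, and those of the PAX2 run from 16.7 to 53.6.

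At least 1 member was nearest to 4520 of 19126 autosomal coding genes, 23.6%. Of these 4520, 2593 had 1 member and 39 had 10 or more. SORCS1, a neuronal sorting receptor, had 32, with covered bp of 948 with DMSO and 736 with 3MB-PP1 (median over members of the group mean). TCERG1L had 24, LOC101927345 22, RERGL 21, XPNPEP1 18, TPTE 18, SEC23IP 17, PREX1 17 and LOC107984449 16. GPAM, MGMT and MKI67, which encodes the mitotic chromosome coat protein Ki-67, followed with 15 each. Of these 12 genes, 7 lie on chromosome 10, 2 on chromosome 12 and 2 on chromosome 21, while PREX1, a Rac exchange factor, lies on chromosome 20. Around PREX1 members reached 46.9 per Mb of allowed DNA, and around SEC23IP 72.9 per Mb.

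The gene lists differed in how many of their genes had a member nearby, which is given as a description without a test. A list of 26 YAP and TEAD targets, genes of the Hippo pathway's mechanical response, had members nearest to 17 (65.4%, 40 members), against 23.6% of all coding genes. For 19 regulators of mesenchymal and epithelial state it was 13 (68.4%, 39 members), for 29 extracellular matrix and TGF-beta genes 16 (55.2%, 38 members) and for 22 AP-1 and immediate early genes 12 (54.5%, 24 members). Mitotic genes had 8 of 28 (28.6%), cytosolic ribosomal proteins 16 of 79 (20.3%), olfactory receptors 72 of 389 (18.5%) and HOX genes 2 of 39 (5.13%). Of all coding genes, 15749 have intergenic DNA that the rule allows, and 28.7% of these had a member nearest. The lists were not restricted to such genes. Genes differ in how much intergenic DNA surrounds them. Per Mb of that DNA the extracellular matrix list had 20.1 members, AP-1 15, YAP and TEAD 11.9, the state regulators 8.54, ribosomal proteins 13.4, HOX genes 9.88, olfactory receptors 7.90 and mitotic genes 4.42, against 9.84 for all. The order by density thus differs from the order by share of genes. The state regulators, with the highest share of these 8 lists, fall below the density of all genes, and the HOX genes, with the lowest, lie at it.

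No member near a listed gene was called in either fit, where 2 of all 8968 members (0.0223%) were called by rank and 0 by covered bp. With so few calls, this says nothing about the lists. The median over members of mean covered bp went from 1085 bp with DMSO to 626 bp with 3MB-PP1 for the AP-1 list, from 1075 to 658 for YAP and TEAD targets, from 1109 to 707 for the matrix list and from 957 to 666 for the state regulators. Over all members it went from 857 to 672 bp. Covered bp was lower with 3MB-PP1 in 22 of 24 AP-1 members (91.7%), 35 of 40 YAP and TEAD members (87.5%), 32 of 38 matrix members (84.2%) and 31 of 39 members of the state regulators (79.5%), against 76.5% of all members. It was lower in 9 of 10 members of the mitotic list, 28 of 34 of the ribosomal proteins (82.4%) and 3 of 3 of the HOX genes. For olfactory receptor members it was 59 of 88 (67.0%), with medians of 732 and 678 bp. These shares carry no test of a difference from the other members.

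Among AP-1 genes, MYC, DUSP1 and KLF6 had 4 members each. MYC encodes a growth-promoting transcription factor with enhancers spread over a large gene-poor neighbourhood. The strongest of its members, by mean rank, chr8:128127302-128128845, lay 384351 bp from the gene, with ranks of 85.6, 84.9, 85.9 and 90.4 with DMSO and 68.9, 84.1, 78.0 and 78.4 with 3MB-PP1. All 3MB-PP1 values lay below the DMSO values, and the difference did not pass (limma adjusted p = 0.336). The strongest member near DUSP1, a MAP kinase phosphatase, was chr5:172732172-172734220, with ranks of 75.8 to 85.8 with DMSO and 43.7 to 78.0 with 3MB-PP1. The strongest near KLF6 was chr10:3850443-3853382, covered over 2520, 1861, 2123 and 1013 bp with DMSO and 1224, 553, 1376 and 858 bp with 3MB-PP1, with overlapping groups.

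Among YAP and TEAD targets, MYOF had 7 members, TGFB2 6 and RBMS3 4. Those near MYOF lie on the dense part of chromosome 10, in 0.116 Mb of allowed DNA. The strongest member near TGFB2, which encodes a TGF-beta ligand, was chr1:218496531-218497040, 51912 bp from the gene. Its rank was 81.3, 79.0, 81.8 and 79.5 with DMSO and 81.2, 84.2, 92.2 and 79.7 with 3MB-PP1, with overlap. In the matrix list THBS2, a matricellular thrombospondin, had 8 members, and TGFBI and COL5A1 had 4 each. The strongest near THBS2, chr6:169069743-169071629, had ranks of 82.2, 88.6, 83.8 and 85.2 with DMSO and 89.0, 88.1, 92.8 and 87.0 with 3MB-PP1. The strongest near COL5A1, a fibrillar collagen gene, was chr9:134601860-134603834. It was covered over 1887, 1576, 1474 and 795 bp with DMSO and 838, 393, 272 and 315 bp with 3MB-PP1, and only DMSO replicate 4 reached into the 3MB-PP1 range (log2 difference relative to the library median -1.39 ± 0.41, limma adjusted p = 0.192).

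Among the state regulators TWIST2 had 10 members, RUNX1 6 and RUNX2 5. TWIST2 is a transcription factor of mesenchymal state, and RUNX1 and RUNX2 are Runt-domain factors. The strongest near RUNX1, chr21:35256391-35257940, had ranks of 86.6, 86.7, 89.9 and 92.1 with DMSO and 90.4, 93.6, 95.9 and 85.2 with 3MB-PP1. The strongest near TWIST2, chr2:238947493-238950055, had ranks of 84.1, 86.6, 86.2 and 83.2 with DMSO and 74.4, 81.4, 81.0 and 73.9 with 3MB-PP1, without overlap but without passing (limma adjusted p = 0.377). Among mitotic genes CENPF and SMC2 had 2 members each and BUB1B 1. Near the ribosomal protein gene RPS24 lay 7 members, the strongest 278455 bp away at chr10:78335261-78337319, on the dense part of chromosome 10, with ranks of 94.0 to 98.5 over the 8 libraries. The 3 members near HOX genes were 2 near HOXC13 and 1 near HOXA13. The last, chr7:27219465-27220756, was covered over 986, 1076, 1195 and 610 bp with DMSO and over 129, 292, 429 and 743 bp with 3MB-PP1.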

How the data were processed

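ATAC-seq peak lists of 8 libraries (4 DMSO, 4 3MB-PP1) were used, 1 per library. Groups and replicate numbers come from the titles. The submitters' processing notes name MACS2, DESeq2 and hg38. The aligner, read filters, any Tn5 shift and the calling settings are not given in the sources used here, and they set how many peaks are called and how wide they are. Each deposited list gives a pileup (signal), a -log10 p, a fold enrichment (ratio) and a -log10 q per peak. These are the authors' own values, so only ranks over the same regions were compared between lists. The deposited -log10 q values reach down to a q of 0.1. Pileup was not used.

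The members, gene lists, the naming rule and the tests were chosen with earlier results of these data known. Genes came from the RefSeq table of GRCh38.p14, where strand was known for too few coding genes to separate their 5′ from their 3′ ends. Per-library measures were compared by exact permutation over 70 assignments, and classes by sign flips over 8 libraries. Single regions were tested with limma 3.58.1 (R 4.3.3) over all 36170 regions of 8 lists with Benjamini-Hochberg adjustment. The 2 inputs were normal scores of the within-library rank and log2 covered bp centred on the library median. The other steps ran in Python 3.11.15 (pandas 2.3.3, numpy 2.4.6, scipy 1.17.1), and interval functions were checked against bedtools 2.31.1 and limma on simulated data.

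The result of 1 list of cell type markers is not reported here. Named were the 10 members of highest mean rank, the 5 widest, the 5 with the smallest p per fit and direction, the longest runs, the 10 genes with most members (12 with a tie) and up to 3 genes per list with their highest-ranked member. Alternatives were a -log10 q of at least 2, lists of equal length, peaks of at least 150 bp, merging within 500 bp, coverage of 50% of the region, a limit of 5 kb or 100 kb, ranking by fold, plain percentiles, no centring, the replicate block, odd and even replicates and leaving out each library. Chosen after seeing the data were the restrictions to regions with a base shared by 8 lists, to those away from chromosome ends and gene-free stretches, and to autosomes other than 10 and 12.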

Additional observations from a re-analysis of the deposited data

Results flagged for a closer look

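The gap between the most distant library and its nearest neighbour, divided by the range of its group of 4, was large in 4 of 16 groups examined, and chance gives about 1 in 20. All 4 belong to the 3MB-PP1 libraries of the 2 called regions. These regions were picked by their p, and rank and covered bp come from the same libraries. The 4 of 16 can therefore not be set against 1 in 20. For the region near LOC101929627 the gap was 0.851 of the range in relative rank, where 3MB-PP1 replicate 2 (91.3) lay below the others, and 0.858 in covered bp, where the same library (1027 bp) lay above them. For the region near CWH43 it was 0.898 in rank, where 3MB-PP1 replicate 1 (92.3) was lowest, and 0.845 in covered bp, where the same library (1508 bp) was lowest. In the rank of both regions the distant library still lay above every DMSO library.

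The treatment difference in covered bp was larger between genes than at coding gene ends by -0.15 on the log2 scale, in a test of the difference itself (exact permutation p = 0.0286, the smallest possible; adjusted over 3 classes 0.0857). The narrowest peak held by a list, 114 to 135 bp with DMSO and 90 to 109 bp with 3MB-PP1, moved with the treatment too, and its part in this difference was not tested.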

How the results depend on the processing

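The difference in median covered bp and in the 3 other per-library measures kept its direction under every alternative run, and no alternative moved an adjusted p to 0.05 or below. That would have needed at least 3 of the 4 measures at the smallest possible p. With odd or even replicates or the replicate block it was not possible at all. With a -log10 q of at least 2 the differences were -340.5 bp for covered bp, -25.7 points for the strong share and 5.30 points for the split share. The rank difference was 0.24 points without chromosomes 10 and 12, 0.44 over regions with a base shared by 8 lists and 0.50 within 100 kb. Leaving out each library gave -217 to -156 bp for covered bp, 8.0 to 10.9 points for the split share, -9.55 to -5.72 points for the strong share and 0.54 to 1.59 points for the rank. For members minus gene-end regions it gave -589 to -571 bp and for members minus gene-body regions -84.4 to -71.2 bp. The treatment difference between members and gene ends, -0.18 to -0.11 on the log2 scale when a library was left out, had an exact permutation p of 0.0571 without DMSO replicate 3 or any 1 of the 4 3MB-PP1 libraries.

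The number of members was 1509 with a -log10 q of at least 2, 1017 with at least 50% of the region covered in each list and 5953 with a base shared by 8 lists, against 8968. Members called by rank were 1 with ranking by fold (2 of all 36170 regions), 1 with plain percentiles (9), 37 in odd-numbered (110) and 1 in even-numbered replicates (3), 4 with the -log10 q minimum (22 of 13492), and 0 to 21 when a library was left out (3 to 59). The 1 call with plain percentiles is the region near TMEM161B, in place of both regions called otherwise. Members called by covered bp were 24 without centring (99 of all regions), 5 with the -log10 q minimum (31 of 13492) and 0 whenever a library was left out (0). The cause of these changes was not tested.

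Same-numbered samples correlated by 0.16, 0.03, 0.03 and 0.15 in their deviations for rank, and by 0.12, 0.02, 0.03 and 0.13 for covered bp. The main tests of treatment did not treat the numbers as pairs. With the replicate number as a block, limma called 45 members by rank (42 higher, 3 lower; 0.502%, against 0.462% of all regions) and 0 by covered bp. The exact sign-flip p over 4 pairs, 0.125 at the least, applied to each per-library measure and to the difference from gene ends (-0.15), so these fits could not pass. For rank, DMSO replicate 3, 3MB-PP1 replicate 2 and 3MB-PP1 replicate 3 did not correlate best with their own number. For covered bp, every library but 3MB-PP1 replicate 2 did. Whether the numbers mark true pairs was not tested.

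Sequencing depth is unknown, and absence of a peak is not absence of signal.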
